A study of Homo sapiens and Mus musculus with 20 samples.

Results

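The genes described here are ATF4 and 9 of its known targets, most of which make serine, asparagine or the one-carbon units drawn from serine. They are ATF4, PHGDH, PSAT1, PSPH, SHMT2, MTHFD2, ALDH1L2, ASNS, CHAC1 and TRIB3, 10 genes chosen by symbol from the 17554 symbols listed in any of the 3 IMR90 experiments. IMR90 is a line of human fetal lung fibroblasts, and the 12 IMR90 libraries were bulk RNA-seq of wild type cells, all from this line. The groups were A485 and its untreated Control2, MS-275 and its untreated Control3, and Pyruvate and its untreated Control6, with 2 libraries each, numbered 1 and 2 in the labels. A485 inhibits the histone acetyltransferases p300 and CBP, MS-275 (entinostat) inhibits class I histone deacetylases, and both were used in the study as modulators of histone lactylation. Pyruvate, the precursor of lactate, was given to senescent IMR90 cells according to the study's text. The 3 experiments shared no control library, and no label gave a dose or a treatment time. Because each of these groups was IMR90 cells in culture, what is given here describes 1 cell line and not lung tissue. Values of mouse gastrocnemius muscle, from MS-275 with Control4 and NALA (sodium lactate) with Control5, appear only in the closing sections.

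ATF4 is a basic leucine zipper (bZIP) transcription factor. When the kinases of the integrated stress response phosphorylate the initiation factor eIF2, general translation falls and the ATF4 message is translated more, so ATF4 protein is controlled in large part after transcription and its mRNA is only a partial measure of its activity. With C/EBP partners, ATF4 binds a composite element in its target genes and raises amino acid synthesis, amino acid import and tRNA charging. Serine is made from the glycolytic intermediate 3-phosphoglycerate by PHGDH, PSAT1 and PSPH, and in mitochondria SHMT2 passes a one-carbon unit from serine to folate, MTHFD2 oxidizes that unit and ALDH1L2 releases it as CO2. ASNS makes asparagine, CHAC1 degrades glutathione and TRIB3 is a pseudokinase that restrains ATF4 signalling.

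The core letters of that composite element, TGATGNAA, were searched on both strands of the RefSeq promoter windows (GRCh38.p14, 250 bases before to 50 after each gene start). They were found in at least 1 window of 4.46% of the 27305 genes with a window. Among the members, 7 had a window and 2 of these, ASNS and CHAC1, held the letters. Among the other ATF4 target genes listed below, 13 of 31 held them. The stretches of both members are shown with those of the 4 further genes named in the results whose windows held the letters, so that the element can be compared with the changes below. Each is written 5′ to 3′ on the strand that reads TGATGNAA, with the matched letters in capitals.

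ASNS: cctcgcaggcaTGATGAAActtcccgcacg
CHAC1: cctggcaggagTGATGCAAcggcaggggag
MTHFD1L: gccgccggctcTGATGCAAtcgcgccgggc
CEBPG: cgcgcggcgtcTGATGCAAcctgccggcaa
ATF3: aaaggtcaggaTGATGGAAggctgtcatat
PPP1R15B: cccgccccggcTGATGCAAcctcacgctgc

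The ASNS stretch lies at chr7:97872458-97872487 on the minus strand, the strand of the gene, and its match begins 68 bases upstream of the RefSeq start of that window, at 97872408. The CHAC1 stretch lies at chr15:40953251-40953280 and is written from the minus strand, opposite to the gene, with the match 209 bases upstream of the RefSeq start at 40953471. Both stretches lie inside the extents of these genes in the GENCODE 44 annotation, given below, which begin farther upstream. The stretches of MTHFD1L (chr6:150866346-150866375, plus strand), CEBPG (chr19:33374060-33374089, plus strand), ATF3 (chr1:212565205-212565234, plus strand) and PPP1R15B (chr1:204412026-204412055, minus strand) all lie upstream of the RefSeq starts of their windows, on the strand of the gene. A match is a description of the letters, not evidence of binding, and TGATGCAA was read in 4 of the 6 stretches. For ATF4, PHGDH, PSAT1, MTHFD2 and TRIB3 the letters are not in these windows. PSPH, SHMT2 and ALDH1L2 were not searched.

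The values are normalized read counts, that is each gene's reads scaled by the size factor of the library. They summed to between 23769581 and 47972633 per library over the 12 libraries. All 10 genes were listed in the A485 and MS-275 experiments and 9 in the pyruvate experiment, where ASNS was not listed, and every listed member passed the minimum mean of 10. A gene is called here when the adjusted p of limma (Benjamini-Hochberg over all genes tested) was under 0.05 and the log2 change of value + 1 exceeded 1 in size. Over all genes, 1667 of 16084 were called in the A485 comparison, 0 of 15883 in the MS-275 comparison and 6503 of 12013 in the pyruvate comparison. The A485 calls were 532 higher and 1135 lower, and 1670 higher and 915 lower when libraries were scaled to equal totals. The pyruvate calls were 3726 higher and 2777 lower, 4402 and 1741 with equal totals, and 2442 and 1139 when the trend on GC content and transcript length was removed from each library. No label says that the 2 libraries of a group came from separate cultures, so the p-values measure the spread between these libraries, which may be technical.

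**Figure D1:**
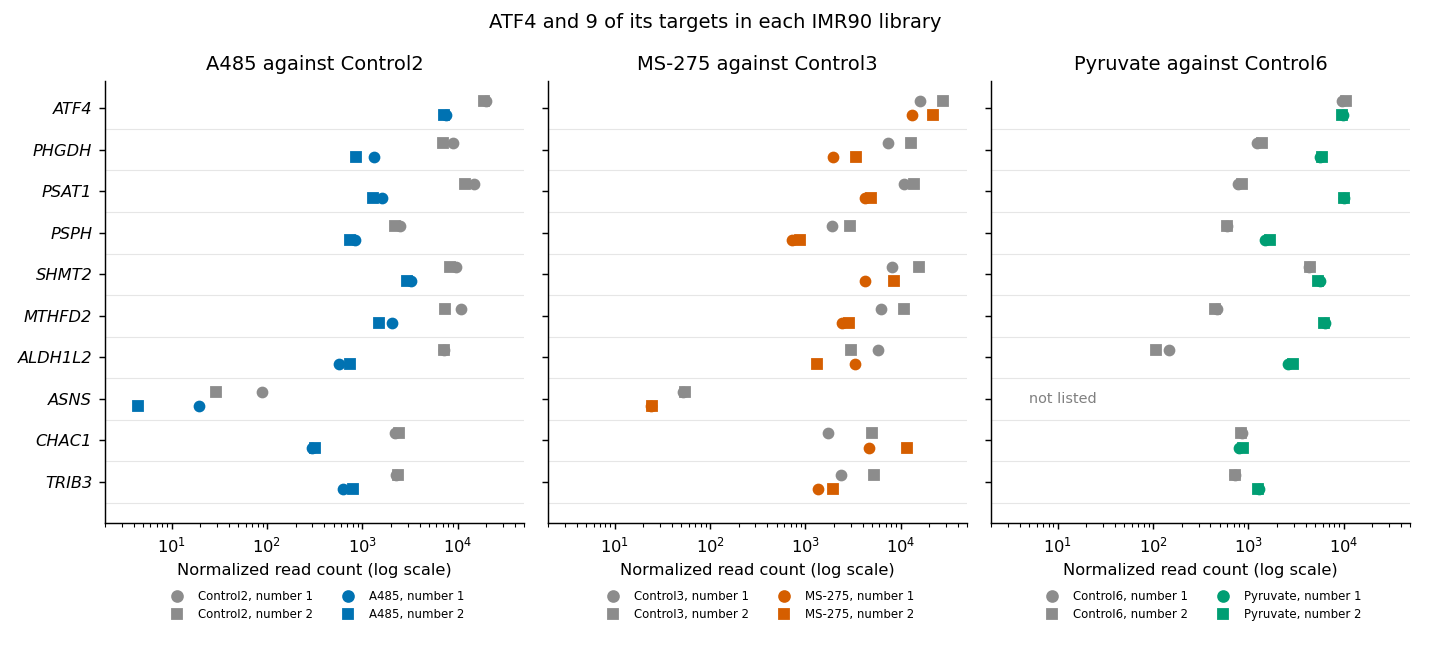
Normalized read counts of the 10 genes in each of the 12 IMR90 libraries, on a log axis, with controls in grey and treated libraries in colour (circle, number 1; square, number 2). In the A485 panel the treated points of all 10 genes lie left of the controls, in the MS-275 panel the number 2 points lie right of number 1 in both arms for 9 of the 10 genes, and in the pyruvate panel PSAT1, MTHFD2 and ALDH1L2 lie far to the right of Control6.

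With A485, ATF4 and the whole serine route were lower. Of the 10 members, 9 were called lower and 0 higher, against 7.06% of all 16084 genes called lower and 3.31% called higher, and both A485 libraries lay below both controls for 10 of 10, against 30.7% of all genes. The members' median log2 change was -2.33, with 0.01 over all genes tested. The largest was the 11.01-fold lower value of ALDH1L2 and the smallest among those called was the 2.61-fold lower value of ATF4. In bulk RNA, fewer cells that express a gene and less RNA of it per cell cannot be told apart. In the same libraries 8 of 10 fibroblast markers were called lower, and the part of this in the members' changes was not tested.

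ATF4 (chr22:39519695-39522683, plus strand, hg38) had normalized read counts of 19676 and 18780 in Control2 and of 7523 and 7235 in A485, in the order of the library numbers. The 2 values of each group differed by little and the groups did not overlap. The log2 change was -1.38 ± 0.16 (SE, n = 2 per group) with an adjusted p of 0.00659 in limma. When libraries were scaled to equal totals it was -0.988 (adjusted p = 0.0127) and with quantile normalization -0.998 (adjusted p = 0.0187), just under the minimum of 1, so that ATF4 was not called and 8 of 10 members were called lower in each.

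PHGDH (chr1:119648411-119744218, plus strand), which commits 3-phosphoglycerate to serine, had 9015 and 7085 in Control2 and 1322 and 851 in A485. PSAT1 (chr9:78297125-78330093, plus strand), the aminotransferase of the next step, went from 14861 and 11949 to 1622 and 1313. PSPH (chr7:56011051-56051604, minus strand), the phosphatase that releases serine, had 2465 and 2219 against 834 and 741. Every A485 value of these enzymes was lower than either control. The log2 changes in limma were -2.91 ± 0.26 for PHGDH (SE, n = 2 per group, adjusted p = 0.00310), -3.19 ± 0.20 for PSAT1 (adjusted p = 0.00128) and -1.57 ± 0.18 for PSPH (adjusted p = 0.00657).

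SHMT2 (chr12:57229573-57234935, plus strand) converts serine to glycine in mitochondria and had 9679 and 8363 in Control2 and 3251 and 2953 in A485. For MTHFD2 (chr2:74186172-74217565, plus strand), the mitochondrial methylenetetrahydrofolate dehydrogenase, the values were 10798 and 7380 against 2065 and 1497. ALDH1L2 (chr12:105019784-105107643, minus strand), the mitochondrial formyltetrahydrofolate dehydrogenase, held 7128 and 7269 in Control2 and 568 and 751 in A485. The controls of MTHFD2 were the most spread of these and still lay above both A485 libraries. The log2 changes in limma were -1.54 ± 0.17 for SHMT2 (SE, n = 2 per group, adjusted p = 0.00547), -2.34 ± 0.26 for MTHFD2 (adjusted p = 0.00547) and -3.46 ± 0.20 for ALDH1L2 (adjusted p = 0.00117). In the GENCODE 44 annotation, 8.38% of the exon bases of SHMT2, 14.1% of MTHFD2 and 2.91% of ALDH1L2 are shared with genes on the opposite strand, and the strand setting of the counting is not given in the sources used here.

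CHAC1 (chr15:40952962-40956512, plus strand) had 2198 and 2408 in Control2 and 298 and 316 in A485, and TRIB3 (chr20:362835-397559, plus strand) had 2239 and 2394 against 622 and 799. These were log2 changes of -2.90 ± 0.20 (SE, n = 2 per group, limma adjusted p = 0.00179) and -1.71 ± 0.20 (adjusted p = 0.00700).

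ASNS (chr7:97851677-97872542, minus strand) was the single member not called. Its values were 89.9 and 29.4 in Control2 and 19.4 and 4.45 in A485, so the groups did not overlap but each spread by over 3-fold, and the log2 change of -2.32 ± 0.90 (SE, n = 2 per group) had an adjusted p of 0.145 in limma. ASNS was also the lowest of the members per length in every group that listed it. In GENCODE 44, 49.3% of its exon bases are shared with a lncRNA gene (ENSG00000284707) on the same strand. Read counters can leave out reads that fall in 2 genes, and its part in these low values was not tested.

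Without A485 replicate 1, and likewise without replicate 2, fewer genes were called, both among the members and among all genes. The log2 changes of all 10 members were still negative. On the recovered reads, edgeR called 9 of 10 lower, against 6.98% of all genes, and DESeq2 9 of 10, against 9.59%.

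**Figure D2:**
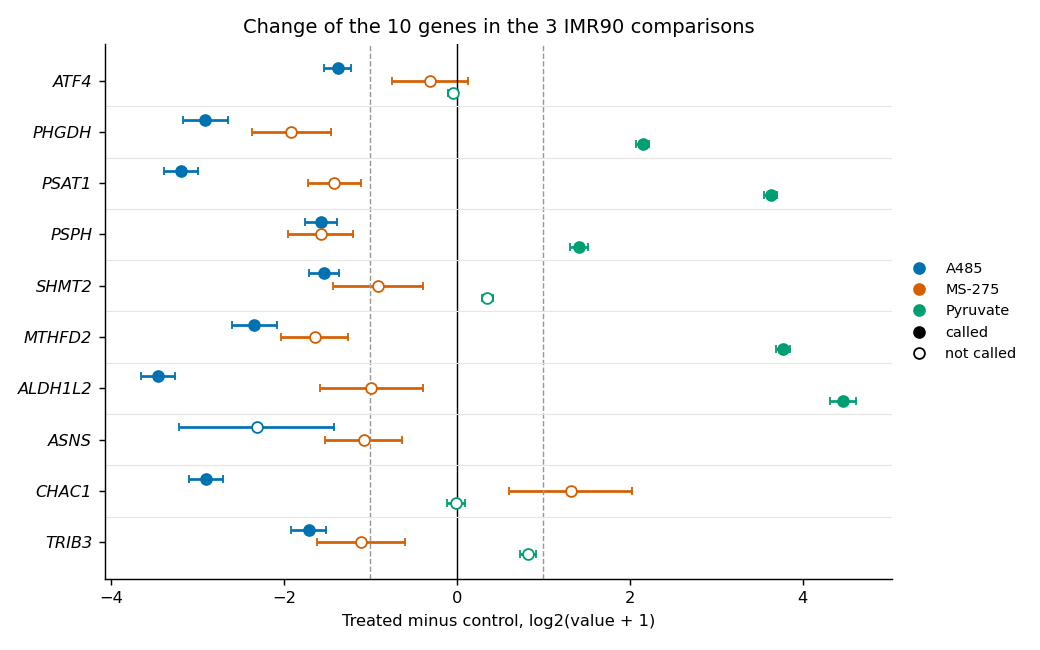
Log2 change of value + 1 (treated minus control) for the 10 genes in the 3 comparisons, with bars of 1 SE from limma (n = 2 per group), filled points for called genes and dashed lines at a log2 change of 1 in either direction. A485 points lie between -3.46 and -1.38, MS-275 points between -1.91 and 1.32 with wide bars, and pyruvate points between -0.05 and 4.47.

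With MS-275, no member passed the limma test, and 0.0% of the 15883 genes tested did. At an unadjusted p under 0.05, 4 of 10 members passed, PHGDH, PSAT1, PSPH and MTHFD2, against 10.9% of all genes. The replicate numbers differed strongly in both arms of this experiment, so the values are given by number. Within each number, 9 of 10 members had a lower value with MS-275, against 40.4% of all genes lower in both numbers, and 5 of 10 were lower by over 1 on the log2 scale in both, against 4.85% of all genes. CHAC1 was the exception and was higher by over 1 in both numbers, as were 6.81% of all genes. Both MS-275 libraries lay below both controls for 6 of 10 members, against 19.3% of all genes.

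PHGDH had 7394 (number 1) and 12750 (number 2) in Control3 and 1966 and 3371 in MS-275, a log2 difference of -1.91 within number 1 and -1.92 within number 2. PSAT1 had 10847 and 13655 against 4254 and 4886 (-1.35 and -1.48), and PSPH 1895 and 2967 against 717 and 881 (-1.40 and -1.75). These enzymes of serine synthesis had MS-275 values below both controls. Their log2 changes over both numbers were -1.91 ± 0.46, -1.42 ± 0.31 and -1.58 ± 0.38 (SE, n = 2 per group), with limma adjusted p of 0.278, 0.254 and 0.278.

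MTHFD2 had 6285 and 10946 in Control3 and 2432 and 2882 in MS-275, with differences of -1.37 and -1.92 within the numbers. SHMT2 had 8183 and 15472 against 4252 and 8430 (-0.94 and -0.88), and ALDH1L2 5790 and 3048 against 3343 and 1339 (-0.79 and -1.19). For SHMT2 and ALDH1L2 the groups overlapped, since the number 1 and number 2 libraries differed about as much as the arms. Limma gave adjusted p of 0.278 for MTHFD2, 0.649 for SHMT2 and 0.666 for ALDH1L2.

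ATF4 itself had 16134 and 27709 in Control3 and 13269 and 21936 in MS-275, differences of -0.28 and -0.34 within the numbers, and the groups overlapped (-0.31 ± 0.44, SE, n = 2 per group, limma adjusted p = 0.928). ASNS had 51.5 and 54.6 against 24.2 and 24.9 (-1.06 and -1.10), where the groups did not overlap. TRIB3 had 2343 and 5310 against 1368 and 1946 (-0.78 and -1.45). CHAC1 had 1744 and 5036 in Control3 and 4642 and 11740 in MS-275, higher by 1.41 within number 1 and by 1.22 within number 2, while the MS-275 number 1 library lay below the Control3 number 2 library. The limma adjusted p was 0.501 for ASNS, 0.556 for TRIB3 and 0.631 for CHAC1.

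The gap between the numbers ran the same way in both arms. The number 2 library was 2.89 times the number 1 library in Control3 and 2.53 times in MS-275 for CHAC1, 1.89 and 1.98 times for SHMT2, and 1.72 and 1.65 times for ATF4. For ALDH1L2 it ran the other way, at 0.53 times in Control3 and 0.40 times in MS-275. Nothing in the labels says what the number stands for.

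**Figure D3:**
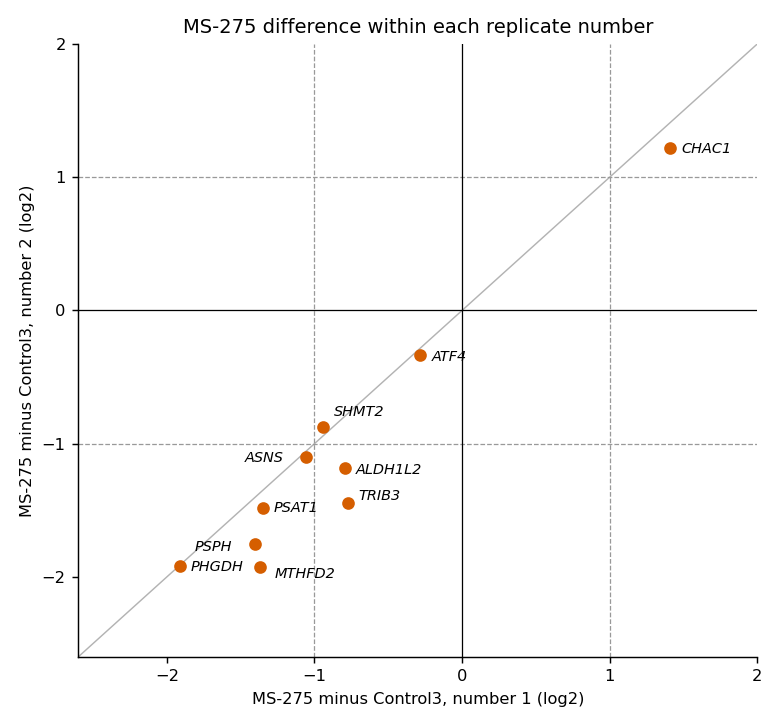
Log2 difference between MS-275 and Control3 for each of the 10 genes within number 1 (horizontal axis) and within number 2 (vertical axis), with dashed lines at 1 in either direction and the diagonal in grey. CHAC1 lies in the upper right, ATF4 lies nearest to 0, and PHGDH, PSAT1, PSPH, MTHFD2 and ASNS lie below -1 on both axes.

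With pyruvate, the enzymes of serine synthesis and mitochondrial folate were higher, and ATF4 and CHAC1 did not pass the test. Of the 9 members listed, 5 were called higher (PHGDH, PSAT1, PSPH, MTHFD2 and ALDH1L2) and 0 lower, against 31.0% of all 12013 genes called higher and 23.1% called lower. SHMT2 and TRIB3 also passed the adjusted p, with changes under 1, so that 7 of 9 passed on the higher side, against 40.6% of all genes. For the same 7, both pyruvate libraries lay above both controls, against 45.2% of all genes. The median log2 change was 1.41 over the members and -0.01 over all genes.

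ALDH1L2 had 145 and 107 in Control6 and 2629 and 2947 in Pyruvate, a 22.1-fold higher value. MTHFD2 had 470 and 447 against 6398 and 6141, which was 13.6-fold higher, and PSAT1 770 and 856 against 10089 and 10037, which was 12.4-fold higher. In all 3 the values of 1 group differed by far less than the groups did. Their Control6 values were also far below those of Control2 and Control3, so these folds are relative to a low control. The controls may not be alike, since the study's text gives senescent cells for the pyruvate treatment and no label gives the state of a control. These 3 also have the lowest GC contents of the members listed, in an experiment with a GC trend (below). The log2 changes in limma were 4.47 ± 0.15 for ALDH1L2 (SE, n = 2 per group, adjusted p = 5.94e-10), 3.77 ± 0.08 for MTHFD2 (adjusted p = 4.70e-11) and 3.63 ± 0.08 for PSAT1 (adjusted p = 4.70e-11). ALDH1L2 stood at the percentile of 99.8 among the log2 changes of all genes tested, MTHFD2 at 99.1 and PSAT1 at 98.8.

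PHGDH had 1241 and 1376 in Control6 and 5628 and 5951 in Pyruvate, and PSPH had 598 and 598 against 1500 and 1685. Both rose, by 2.15 ± 0.08 and 1.41 ± 0.10 on the log2 scale (SE, n = 2 per group, limma adjusted p = 8.88e-10 and 1.42e-07). SHMT2 had 4300 and 4392 against 5700 and 5371, a smaller rise of 0.35 ± 0.06 (adjusted p = 0.000349). TRIB3 had 731 and 715 against 1305 and 1251, a rise of 0.82 ± 0.10 (adjusted p = 9.30e-06). Among the log2 changes of all genes tested, PHGDH stood at the percentile of 86.8, PSPH at 75.2, TRIB3 at 65.2 and SHMT2 at 56.9.

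ATF4 had 9627 and 10484 in Control6 and 9850 and 9619 in Pyruvate, and CHAC1 had 862 and 831 against 797 and 881. The groups overlapped for both. Their log2 changes were -0.05 ± 0.06 (SE, n = 2 per group, limma adjusted p = 0.498) and -0.01 ± 0.10 (adjusted p = 0.904).

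The pyruvate changes followed the GC content of the transcripts across all genes. Over 11888 genes, Spearman's rho between the log2 change and the GC content was -0.72, against -0.11 in the A485 and -0.02 in the MS-275 comparison. This is a description across genes, which are not independent and share their libraries. The 3 members that changed most, MTHFD2 (41.0% GC), ALDH1L2 (41.5%) and PSAT1 (42.5%), have the lowest GC contents of the 9, and CHAC1 (61.2%) and TRIB3 (61.5%) the highest. When the trend on GC content and length was removed from each library, 9 of 9 members were called higher, against 20.5% of all genes, with the median of all genes at 0.20. PHGDH then stood at 3.38, ALDH1L2 at 2.83, PSAT1 at 2.65, MTHFD2 at 2.29, TRIB3 at 2.14 and PSPH at 1.80. SHMT2 was at 1.48, CHAC1 at 1.38 and ATF4 at 1.02. Removing the trend thus set ATF4 and CHAC1 above the median of all genes. With equal library totals they were 0.27 and 0.30, near the median of all genes of 0.30. As deposited they were also near that median, which was then -0.01.

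**Figure D4:**
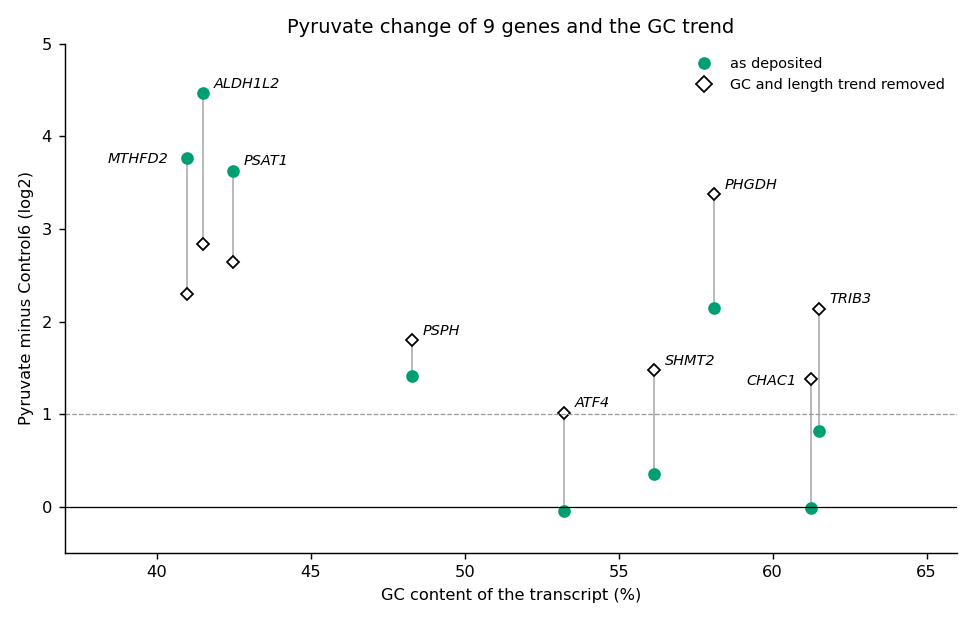
Log2 change between Pyruvate and Control6 against the GC content of the transcript in percent for the 9 members listed, as deposited (filled circles) and with the trend on GC content and length removed (open diamonds), with a dashed line at 1. Values below 45% GC move down, to between 2.29 and 2.83, and values above it move up, and all 9 diamonds lie above 1.

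The 3 responses were compared as differences of log2 changes in 1 limma fit over the 12 libraries and the 11989 genes tested in every experiment, which leaves out ASNS. A485 and MS-275 differed in 3 of 9 members at an adjusted p under 0.05, against 10.2% of all genes. CHAC1 differed most, by -4.22 ± 0.70 (A485 minus MS-275, SE, n = 2 per group, limma adjusted p = 0.00500). PSAT1 differed by -1.77 ± 0.28 (adjusted p = 0.00406) and ALDH1L2 by -2.47 ± 0.60 (adjusted p = 0.0310). The fit over 12 libraries shares 1 estimate of the spread, although the spread between replicates was unequal. Chi-square per gene between replicates was 421 in Control3 and 467 in MS-275, but 14.3 in Control6 and 4.33 in Pyruvate. In the fit on the 8 libraries of the A485 and MS-275 experiments, CHAC1 (limma adjusted p = 0.0344) and PSAT1 (0.0457) were the members that passed, and ALDH1L2 had an adjusted p of 0.107. For PSPH the difference was 0.00 ± 0.34 and for ATF4 it was -1.07 ± 0.41 (adjusted p = 0.140), neither of which passed. A485 and pyruvate differed in 9 of 9 members, against 48.3% of all genes, from -1.34 ± 0.41 for ATF4 (adjusted p = 0.0225) to -7.93 ± 0.60 for ALDH1L2 (adjusted p = 2.71e-05). MS-275 and pyruvate differed in 6 of 9, against 46.0% of all genes, with ATF4, CHAC1 and SHMT2 not passing.

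Levels of different genes can be compared only per length, and between experiments only with care, since each was normalized on its own. Per kilobase of transcript, ATF4 was the most abundant member in every group, at 13550 ± 446 (SD, n = 2) in Control2, 15449 ± 5768 in Control3 and 7086 ± 427 in Control6. In Control2 it was followed by PSAT1 (6077 ± 933), PHGDH (4314 ± 731) and SHMT2 (4182 ± 431), and the last of these did not differ from PHGDH beyond their spread. MTHFD2 (2064 ± 549), CHAC1 (1515 ± 97.4), PSPH (1186 ± 88.0), TRIB3 (983 ± 46.6), ALDH1L2 (969 ± 13.4) and ASNS (25.0 ± 17.9) followed, with TRIB3 and ALDH1L2 within their spread of each other. In Control6, the control of the pyruvate experiment, the order was different: after ATF4 came SHMT2 (2015 ± 30.2), PHGDH (701 ± 51.3) and CHAC1 (557 ± 14.5), and PSAT1 (369 ± 27.6) lay above TRIB3 (307 ± 4.72) and PSPH (303 ± 0.11), which were within their spread of each other. MTHFD2 (104 ± 3.76) and ALDH1L2 (17.02 ± 3.61) were lowest there. In Pyruvate, PSAT1 (4562 ± 16.6) was second to ATF4 (6860 ± 115). Control3 held PSAT1 at 5553 ± 900, MTHFD2 at 1957 ± 749 and ALDH1L2 at 595 ± 261, also far above Control6. MTHFD2 (1424 ± 41.3) and ALDH1L2 (375 ± 30.3) in Pyruvate stayed, like PSAT1, below their Control2 and Control3 means. With equal library totals Control6 was again the lowest control for these genes. PSAT1 and MTHFD2 in Pyruvate then lay above those means and ALDH1L2 between them. The senescent state given in the study's text for the pyruvate treatment and the GC trend of that experiment were not separated from these gaps. The cause was not tested.

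The other genes of the pathway were read from 4 lists of 87 genes in all. In the A485 comparison 28 of the 84 tested were called lower, against 7.06% of all genes, and 0 higher (5 higher with libraries scaled to equal totals), and 24 of those 28 were among the 36 tested of the other ATF4 target genes, whose median log2 change was -1.76. STC2, a secreted glycoprotein, had 36397 and 45361 in Control2 and 306 and 525 in A485 (log2 change -6.66, limma adjusted p = 0.000812). SLC7A11, the cystine importer, had 18151 and 12749 against 105 and 266 (-6.50, adjusted p = 0.00184), and ADM2, a peptide hormone, had 985 and 756 against 8.43 and 18.7 (-5.99, adjusted p = 0.00243). These exceeded the change of every member. Of the 10 bZIP partners and stress transcription factors, CEBPB (4154 and 4023 against 1219 and 1010) and NUPR1 (691 and 1151 against 126 and 190) were called lower. CEBPG, a partner of ATF4, had 2426 and 1870 against 1197 and 1015 (-0.95, adjusted p = 0.0384), a change under the minimum of 1.

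The stress transcription factors DDIT3 and ATF3 did not pass in the A485 comparison. DDIT3 (CHOP) had 581 and 448 in Control2 and 501 and 297 in A485 with overlapping groups (adjusted p = 0.463). ATF3 had 403 and 767 against 821 and 1381 (0.93, adjusted p = 0.173), and PPP1R15A, the stress-induced adaptor of the eIF2 phosphatase, had 6217 and 8181 against 2887 and 5536 (adjusted p = 0.152). Among the 18 genes of the integrated stress response kinases, eIF2 subunits and phosphatase adaptors, the called gene was EIF2S3 (12852 and 12854 against 6524 and 5884, -1.05, adjusted p = 0.0141), and EIF2S2 passed with a change under 1 (8947 and 8593 against 5852 and 5304). Both encode subunits of eIF2. Among the 20 tested serine, glycine and folate genes outside the members, 1 was called, MTHFD1L, a mitochondrial formate-tetrahydrofolate ligase (4647 and 4194 against 1064 and 999, -2.10, adjusted p = 0.00239). GLUD1, glutamate dehydrogenase, passed with a change under 1 (7940 and 7675 against 5153 and 4767). The median log2 change of that list was -0.31. Without A485 replicate 1, A485 replicate 2 or Control2 replicate 2, fewer genes were called, both over the 4 lists and over all genes.

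In the MS-275 comparison 0 of 83 genes of these lists were called by limma, and 12 had an unadjusted p under 0.05, against 10.9% of all genes. The other ATF4 target genes had a median log2 change of -0.50, and 25 of 36 were lower within both numbers, against 40.4% of all genes. Low p-values were those of ATF5 (926 and 1266 in Control3, 131 and 147 in MS-275, limma adjusted p = 0.162), TYMS (518 and 563 against 98.8 and 102, adjusted p = 0.167) and SLC6A9, a glycine transporter (1227 and 989 against 332 and 294, adjusted p = 0.216). NUPR1 had 1129 and 2098 against 344 and 474, EIF2S2 8808 and 8210 against 6958 and 4992, and EIF2AK4 (GCN2, the kinase that senses uncharged tRNA) 8013 and 6405 against 11789 and 10820. GDF15, a secreted stress cytokine, was on the higher side with CHAC1, at 1994 and 4115 against 10130 and 17273 (adjusted p = 0.270). SLC7A11 had 10017 and 2608 in Control3 and 26872 and 4624 in MS-275, with overlapping groups and a log2 change of 1.12 ± 1.07 (SE, n = 2 per group, adjusted p = 0.836). Its A485 and MS-275 changes differed by -7.63 ± 1.16 (limma adjusted p = 0.00322). DDIT3 had 877 and 1872 against 852 and 1255, ATF3 469 and 621 against 755 and 678, and PPP1R15A 5796 and 7663 against 4730 and 5122.

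In the pyruvate comparison 34 of the 82 genes tested in these lists were called higher and 7 lower, against 31.0% and 23.1% of all genes. Among the other ATF4 target genes it was 18 higher and 2 lower of 36, with a median of 1.01. With the GC and length trend removed it was 26 and 0, against 2442 (20.5%) and 1139 of all 11888 genes. The median of all genes was then 0.20. XPOT, the exporter of tRNA from the nucleus, had 247 and 235 in Control6 and 8307 and 8300 in Pyruvate (log2 change 5.10, limma adjusted p = 1.57e-11). The tRNA synthetases LARS1 (256 and 304 against 4782 and 4987, 4.12, adjusted p = 1.00e-10) and EPRS1 (317 and 254 against 4229 and 4387, 3.92, adjusted p = 2.06e-10) came next. All 3 stayed higher with the trend removed, at 3.42, 2.65 and 2.55. Among the stress factors, CEBPG (78.6 and 119 against 1283 and 1173, 3.65), ATF6, the membrane-bound sensor of endoplasmic reticulum stress (354 and 251 against 1987 and 1658, 2.60), and DDIT3 (79.6 and 109 against 290 and 262, 1.56) were called higher. ATF3 fell by 0.94 (745 and 783 against 392 and 402, adjusted p = 1.77e-05), and at -0.19 with the trend removed it no longer passed (adjusted p = 0.147).

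The eIF2 subunits EIF2S3 (1313 and 1277 in Control6, 7470 and 7463 in Pyruvate) and EIF2S1 (574 and 585 against 3233 and 3155) and the phosphatase adaptor PPP1R15B (326 and 326 against 1831 and 1669) rose with pyruvate, by 2.53, 2.46 and 2.42 on the log2 scale. With the trend removed they were at 1.19, 0.91 and 1.23. In that list 8 of 18 were called higher and 2 lower, against 31.0% and 23.1% of all genes. With the trend removed it was 5 and 1 of 18, against 2442 (20.5%) and 1139 of all 11888 genes. In the serine, glycine and folate list 5 of 18 were called higher and 3 lower, near those shares of all genes (31.0% and 23.1%). MTR, methionine synthase (215 and 140 against 1312 and 1456, 2.99), was called higher, and SLC19A1, the reduced folate carrier (900 and 902 against 205 and 323, -1.80), lower. PPP1R15A had 6133 and 6453 against 8640 and 8929 (0.48), and SLC7A11 318 and 277 against 521 and 603 (0.91), which turned to -0.75 with the trend removed.

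**Figure D5:**
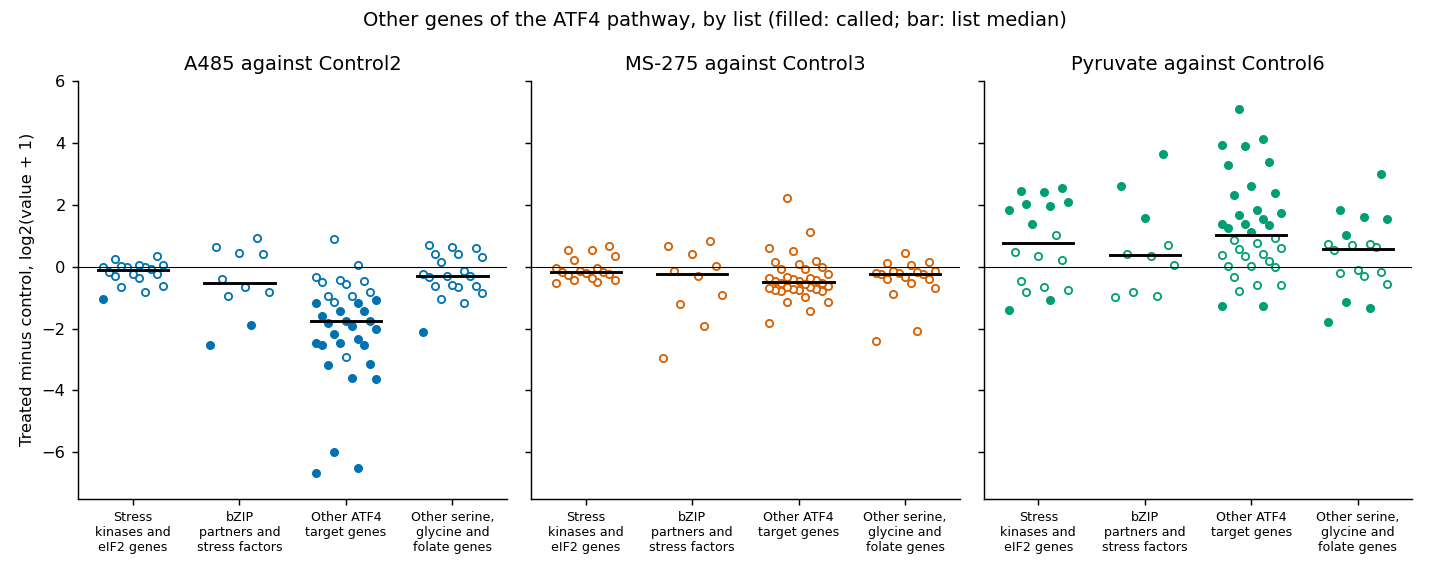
Log2 change of value + 1 (treated minus control) of each tested gene in the 4 lists for the 3 comparisons, with called genes filled and the median of each list as a bar. The medians of the other ATF4 target genes are -1.76 with A485, -0.50 with MS-275 and 1.01 with pyruvate.

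The profiles of the 9 members listed everywhere were compared over the 12 libraries, each centred within its experiment. PHGDH was nearest to their mean profile (Pearson's r = 0.98), then PSAT1 (0.98), PSPH (0.94), MTHFD2 (0.94), TRIB3 (0.93), ALDH1L2 (0.89) and SHMT2 (0.86). ATF4 (0.76) and CHAC1 (0.57) were farthest. Among genes in none of the lists, those most like the mean profile were ARPIN (r = 0.98), CTHRC1 (0.97), KCTD15 (0.96), LRIG3 (0.96) and TSR1 (0.96). Each member is itself part of the mean profile, which raises its r, while the genes in none of the lists are not. These correlations over 12 libraries share their experiments and treatments and carry no test.

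All 10 fibroblast markers, among them COL1A1, COL1A2 and VIM, were listed in every IMR90 experiment. Some markers of other cell types were listed too, among them the epithelial keratins KRT8 and KRT18 and the endothelial VWF and TEK in all 3 experiments, while CDH1, PECAM1, CDH5 and PTPRC were listed in none. In the A485 experiment the summed value of the 10 fibroblast markers was 1359829 to 1517350 in Control2 and 428498 to 502331 in A485. Of these 8 of 10 were called lower, against 7.06% of all genes. COL1A1 and COL1A2 had the highest values of the 10 in all 3 experiments and weigh most in these sums. The sum was 773107 to 1261996 in Control3 and 633358 to 1121453 in MS-275, with 0 of 10 called. In the pyruvate experiment it was 881095 to 897002 in Control6 and 775989 to 779141 in Pyruvate. There 3 were called higher and 1 lower, against 31.0% and 23.1% of all genes. Of the 5 endothelial markers 3 were listed in the A485 experiment, where they summed to 508 to 1289 in Control2 and 127 to 189 in A485, with 0 called higher and 2 lower. In the pyruvate experiment 2 were listed, TEK and VWF, at 358 to 481 in Control6 and 1448 to 1469 in Pyruvate. Of these 1 was called higher and 1 lower, and the highest value was 1435 for TEK and 164 for VWF. Of the 6 epithelial markers 4 were listed in the A485 experiment (2718 to 3089 in Control2, 1265 to 1608 in A485), with 1 called higher and 2 lower. The 6 immune markers summed to at most 46.3 in any IMR90 library. The part of these lists in the members' changes was not tested.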

How the data were processed

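RNA-seq libraries of IMR90 cells were grouped by their titles and each treatment was compared with the control of its own experiment. Per the study's methods and the submitters' processing notes, the authors trimmed reads with Trim Galore (0.6.10), aligned them to hg38 with HISAT2 (2.2.1), handled alignments with SAMtools (1.7), counted with featureCounts (2.0.6) and divided counts by DESeq2 (1.34.0) size factors, so the deposited values are a signal relative to the typical gene of each experiment. The annotation and strand setting are not given in the sources used here. Deposited values of the A485 experiment were whole multiples of 1 read (100% within 0.01), and 39194881 to 40557867 reads per library were recovered.

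Tests used limma (3.58.1, R 4.3.3) on log2(value + 1), which understates changes of low genes, keeping genes whose 4 libraries averaged at least 10, with an intensity trend and no covariate, two-sided. Chi-square per gene between replicates was 4.33 to 467, so no pair was taken as a single library. edgeR (4.0.16) and DESeq2 (1.42.0) were run on the recovered A485 reads. Other alternatives were the pseudocount, filter, scaling, GC and length trend, replicate block, shared fit, fold minimum and leaving out each library. The fitting was tested on simulated data. Genes outside the members were named by a rule: the 3 largest changes per list that passed, or the 2 lowest p, DDIT3, ATF3, PPP1R15A and SLC7A11, and the 5 unlisted genes whose profile was most like the members' mean. A gene named by this rule is not reported here. The members and lists were chosen with earlier results of these data known. Promoter windows are from RefSeq.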

Additional observations from a re-analysis of the deposited data

Results flagged for a closer look

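Outside the IMR90 libraries, in mouse gastrocnemius muscle, Aldh1l2 was listed at 0 in both libraries of Control4 and at normalized read counts of 6.79 and 8.54 in the MS-275 libraries, a mean of 7.67. It was flagged because a value appeared above the controls in data that no comparison above used. Every one of these values lay under 10, the minimum mean of the tests above, and so near the floor. No test was run on it.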

How the results depend on the processing

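With 2 libraries per group, calls depended on the spread of single libraries, and ASNS rested on values of only 4.45 to 89.9. Count tests were not run for MS-275, pyruvate or the differences between effects, because whole reads were taken as recovered only for A485.

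A fit without 1 library assumes that the lone library varies like the other group. Leaving out 1 library in turn gave 4 to 9 members called lower with A485, 7 to 20 other pathway genes and 117 to 844 genes in all. With MS-275 it gave 0 to 1 other pathway genes higher, 0 to 1 lower and 0 to 419 genes in all, with 390 without Control3 replicate 1, 419 without Control3 replicate 2 and 12 without MS-275 replicate 1. The log2 change ranged from -0.70 to 0.081 for ATF4, -0.86 to 0.24 for DDIT3 and -0.14 to 2.39 for SLC7A11 with MS-275. With pyruvate it ranged from -0.11 to 0.016 for ATF4 and from -0.087 to 0.058 for CHAC1. The A485 minus MS-275 difference ranged from -0.32 to 0.33 for PSPH, and the MS-275 minus pyruvate difference from -0.65 to 0.13 for ATF4.

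Same-numbered libraries deviated together with a correlation of 0.32 in the A485, 0.73 in the MS-275 and 0.00 in the pyruvate experiment, but the labels do not say what a number marks. With the replicate block, A485 gave 10 members called lower, with ASNS added (adjusted p = 0.0296), and 10 also with the GC and length trend removed. With the block alone, MS-275 gave 1 member called higher and 5 lower, 2 and 9 other pathway genes, and 2183 genes in all, and 7 members differed between A485 and MS-275. With the GC and length trend removed as well, the block gave 1 and 5 members, 2 and 9 other pathway genes, 2003 genes in all, and 7 members that differed. In 1 fit over 12 libraries, MS-275 gave 4 members lower, 1 other pathway gene higher and 7 lower, and 487 genes in all.

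As deposited, the all-gene median was 0.01 with A485, -0.01 with MS-275 and -0.01 with pyruvate. When libraries were scaled to equal totals, it was 0.40, -0.15 and 0.30 in that order. With quantile normalization it was 0.12 with A485 and -0.17 with pyruvate. Equal totals gave 5 other pathway genes higher and 2585 genes in all with A485, and 3 other pathway genes lower with pyruvate. Without the intensity trend A485 gave 17 other pathway genes lower and 840 genes in all. Removing the GC and length trend gave 9 pyruvate members higher, 2 other pathway genes lower and 3581 genes in all, and 5 members that differed between A485 and MS-275. With the replicate block added to that, pyruvate gave 9, 2 and 3627. With a fold minimum of 0.58, 16 other pathway genes were lower with pyruvate, and with none 21 were lower and 52 higher. The pyruvate change of ATF4 became 0.26 with quantile normalization, 0.27 with equal totals and 1.02 with the trend removed, with or without the replicate block. That of CHAC1 became 0.30 with equal totals and 1.38 with the trend removed, and that of SLC7A11 -0.75 with the trend removed, again with or without the block. The causes were not tested.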

Other observations

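In the mouse muscle libraries 4 of the members were listed in the MS-275 experiment and 3 in the NALA experiment. Psph, the last enzyme of serine synthesis, had normalized read counts of 3187 and 3121 in Control4 and 460 and 692 in MS-275, and 2131 and 2119 in Control5 against 1928 and 1945 in NALA. Both treated libraries lay below both controls in each experiment, but the share of all muscle genes that did so was not computed. The normalized read counts of all genes summed to 16121296 and 15308288 in Control4 and to 6693625 and 9768109 in MS-275. In the NALA experiment the sums were 14703245 and 14688069 in Control5 and 12670494 and 12968938 in NALA. The part of these sums in the Psph values was not tested. Asns had 38.9 and 225 in Control4 and 511 and 189 in MS-275, and 87.6 and 105 in Control5 against 92.0 and 130 in NALA. Chac1 had 59.7 and 71.2 against 37.1 and 77.7 in the MS-275 experiment, and 68.8 and 73.0 against 50.003 and 77.7 in the NALA experiment. The groups of Asns and Chac1 overlapped in both. These values carry no test.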
